A study of Mus musculus with 2 samples.

Results

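The genes described here are C1qa, C1qb, C1qc, C2, C3, C4b, Cfb, Serping1 and Cd55, 9 genes of the complement pathway that were found by their gene name in the scanner files, out of 37007 genes with a probe on the array. They were compared in cells of the submandibular gland, a salivary gland, taken from female C57BL/6 mice (C57BL/6N in the methods) at 9 weeks (young) and at 24 months (aged). Epithelial cells were picked out of the digested gland with magnetic beads against EpCAM, a surface protein of epithelia, and the number of mice behind each array is not given in the labels. RNA of each age went on 1 Agilent array carrying the dye Cy3, and both arrays shared a slide. Nothing here can be set against a spread between mice, and no test of age is possible. The methods give different sources for the young and the aged mice, and age and source cannot be told apart.

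Complement is a cascade of secreted proteins that tags particles for uptake and can perforate membranes. In the classical pathway, C1q recognises antibody bound to a surface, and the proteases C1r and C1s then cut C4 and C2, which together form an enzyme that cuts C3. The alternative pathway uses factor B, factor D and properdin to amplify the deposition of C3. C1q is made largely by macrophages and dendritic cells, whereas C3, C4, factor B and the C1 inhibitor are made by liver and by many epithelial and stromal cells.

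The 9 genes were read by 16 probes of 60 bases, each in 1 spot. Shown are 6 of them, each with a reading frame free of stop codons over its whole length, since these letters decide which transcript a signal stands for. Most probes not shown also had such a frame. The 6 were picked as likely coding from the frame and knowledge of the protein, and their place in the transcript was not checked. No letter is set in capitals, because the whole probe carries the reading. C1qa and C1qb rest on 1 probe each, the C3 probe is the second of a pair, the C4b probe is one that the files also match to C4a, and the first of the Cfb probes is the one that was measured.
C1qa A_51_P181451: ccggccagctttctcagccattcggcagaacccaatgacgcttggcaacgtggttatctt
C1qb A_51_P351860: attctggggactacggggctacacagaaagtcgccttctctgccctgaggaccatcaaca
C3 A_55_P2038525: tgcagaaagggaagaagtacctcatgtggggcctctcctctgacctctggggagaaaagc
C4b A_51_P428708: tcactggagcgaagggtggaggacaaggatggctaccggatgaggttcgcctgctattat
Cfb A_51_P413866: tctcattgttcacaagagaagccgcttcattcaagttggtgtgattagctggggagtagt
Cfb A_66_P138911: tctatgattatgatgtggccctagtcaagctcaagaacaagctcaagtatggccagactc

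Signals are background-subtracted intensities, and the error given with each comes from the error model of the scanner software for that spot, so it covers neither mice nor sorting. A level is the log2 of a signal over the 75th percentile of its array (256 young, 198 aged). The software marks a spot as well above background, which held for 55.4% of 59305 probe spots in young and 50.8% in aged, and a probe with that mark is called measured. Each gene is represented by its brightest measured probe, differences are aged minus young, and 2-fold is the threshold. Where a single array measured the probe, the text gives a limit ("at least"), which holds for this scaling and background subtraction only. By these rules, 539 of 21346 genes (2.53%) passed 2-fold upward in aged and 1098 (5.14%) passed it downward, a share upward of 32.9%. The share depended on scaling, with 48.1% after median centring (802 up, 867 down) and 17.7% after levelling on spike-in controls (348 up, 1619 down). Relative to the 75th percentile, the median of all genes shifted by 0.17 with the former, by -0.26 with the latter, by -0.14 with loess and by -0.11 when the percentile was taken over probes that both arrays measured.

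In aged cells, the 3 C1q genes were 2.08-fold to 2.67-fold lower and C3 was 3.42-fold higher. C2 was 1.86-fold lower, under the threshold. For C4b, Cfb, Serping1 and Cd55, the difference was 1.14-fold or less and smaller than its error from the 2 spots. In counts, 1 of the 9 genes passed 2-fold upward, beside 2.53% of all kept genes, and 3 passed it downward, beside 5.14%. Both arrays measured all 9 genes with 1 or more probes, and their median difference was -0.17, beside 0.09 for the 18745 genes measured on both. Fewer cells of a type and less RNA per cell cannot be told apart in these samples.

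**Figure D1:**
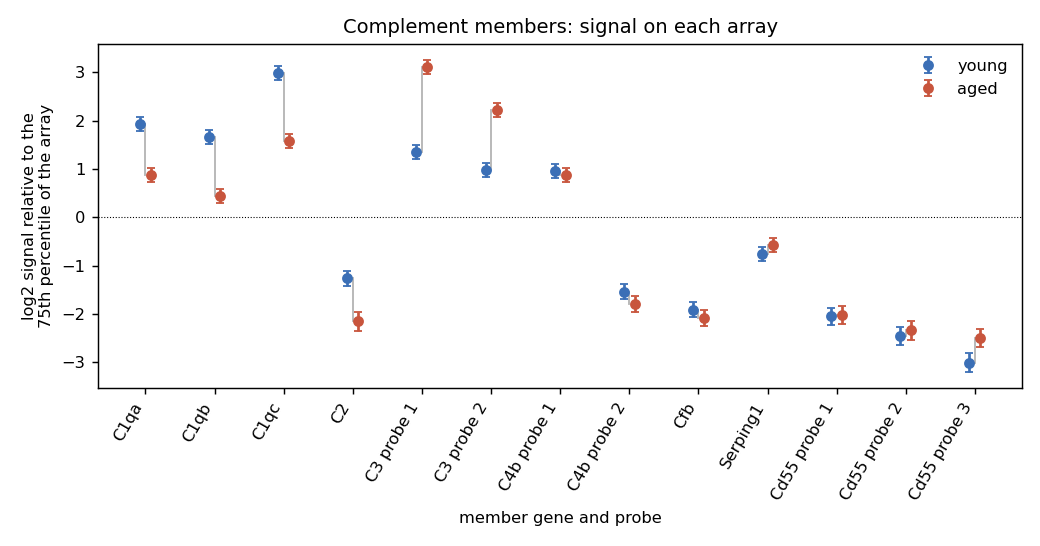
Log2 signal relative to the 75th percentile of the array (vertical axis) for the 13 probes of the complement genes measured on both arrays (horizontal axis), with the young array in blue and the aged array in red. Each point is 1 spot and its bar is the error of the software for that spot. The aged points of C1qa, C1qb, C1qc and C2 lie below the young ones, both C3 probes lie above, and the error bars overlap for Cfb, Serping1, both C4b probes and the first and second probes of Cd55.

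The C1q genes encode the chains that assemble into C1q, the molecule that starts the classical pathway. They lie side by side on chromosome 4, between Epha8 and Ephb2, and the files place their probes on the reverse strand in NCBI37 (mm9), from 136452409 to 136452468 for C1qa, from 136445766 to 136445825 for C1qc and from 136436578 to 136436637 for C1qb. The C1qa signal was 973 ± 97.4 in young and 362 ± 36.3 in aged cells. This is a level of 1.93 against 0.87, a log2 difference of -1.06 ± 0.20. The C1qb signal was 811 ± 81.1 in young and 268 ± 27.0 in aged cells, a difference of -1.23 ± 0.20 (2.34-fold lower). Both genes were thus lower in aged cells by more than the error of the spots.

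C1qc had the widest difference of the C1q genes. Its signal was 2028 ± 203 in young and 588 ± 58.9 in aged cells, a log2 difference of -1.41 ± 0.20. Of the 18745 genes measured on both arrays, 284, C1qc included, had a difference as low or lower. The C1q differences spanned 0.36 on the log2 scale. Over 8 scalings of the arrays, C1qc lay between -1.67 and -1.24 and C1qb between -1.48 and -1.05, past 2-fold throughout. C1qa lay between -1.31 and -0.88 and was under 2-fold with centring on the median and with the normexp background correction. A second C1qc probe, for an Ensembl transcript, was measured by neither array. Of the genes beside the cluster, Ephb2 differed by 0.19, and Epha8, measured in aged cells alone, was higher by at least 2.94-fold. Over the scalings, the Epha8 difference lay between 0.85 and 3.90, under 2-fold at the low end. Relative to the 75th percentile, neither flanking gene was lower, unlike C1qa, C1qb and C1qc.

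C1q is known as a product of macrophages, and the sorted cells held their transcripts. All 16 macrophage markers of a fixed list were measured on both arrays. All 16 had a negative difference and 12 passed 2-fold downward, with a median of -1.25 and a range from -1.91 to -0.62. Their summed signal, in multiples of the 75th percentile, was 179.7 in young and 69.6 in aged cells. Adgre1, which encodes the macrophage antigen F4/80, differed by -1.36, the scavenger receptor Cd163 by -1.86, the mannose receptor Mrc1 by -1.88, the lysozyme gene Lyz2 by -1.91, and Csf1r, the receptor that keeps macrophages alive, by -0.62. A dimmer Csf1r probe, also measured on both arrays, differed by -0.08, outside the range of the brightest probes. The C1q genes lay within that range, with 12 of the 16 markers below C1qa, 8 below C1qb and 6 below C1qc. The median of the C1q genes differed from that of the markers by 0.02, and by -0.08 to 0.11 over the scalings. Of the scalings, only quantile normalization, loess and normexp can move this gap, since the others shift a whole array by a constant. A median near that of the C1q genes was not particular to macrophage markers. It was -1.21 for the fibroblast markers measured on both arrays and -1.40 for the leukocyte markers, but -0.57 for the endothelial and 0.20 for the epithelial ones. The share of the macrophage markers in the C1q result was not tested.

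Markers of other cell types were read beside them. The leukocyte genes Coro1a and Laptm5 differed by -1.62 and -1.40. Ptprc (CD45) differed by -0.21 with its brightest probe, but its probes disagreed, since others that both arrays measured gave -1.53 and -0.09. Of the dendritic cell markers, Flt3 differed by -1.45, Cd209a was lower by at least 10.4-fold and Xcr1 was measured by neither array. The epithelial markers Epcam, Cdh1, Krt7, Krt8 and Krt18 differed by 0.03 to 0.54, with a median of 0.20, and Krt19 was measured in young cells alone. The sorted cells thus carried these epithelial markers at both ages, 5 of 6 within 2-fold, beside macrophage transcripts that were lower in aged cells. Of 6 acinar markers, 1 passed 2-fold downward (Smgc, -1.79), as did 1 of 5 basal and myoepithelial ones (Myh11, -1.83) and 0 of 4 granular duct ones. Another Myh11 probe measured on both arrays differed by 0.12. Acta2 differed by -0.08 with its brightest probe and by -1.96 with another.

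**Figure D2:**
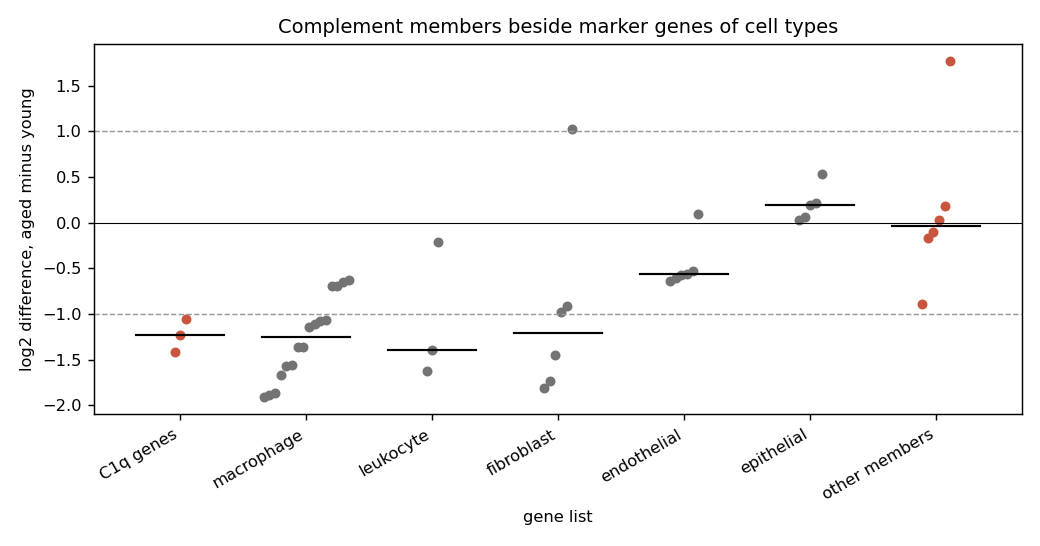
Log2 difference, aged minus young (vertical axis), of single genes measured on both arrays, grouped by list (horizontal axis), with complement genes in red, marker genes of cell types in grey and the median of each list as a black line. Dashed lines mark 2-fold. The C1q genes lie inside the range of the macrophage markers, from -1.91 to -0.62, and also inside that of the fibroblast markers, from -1.81 to 1.02. The other complement genes spread around -0.04 with C3 alone above 2-fold.

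C4b and C2 encode the proteins that C1s cuts, and together they supply the enzyme of the classical pathway that cuts C3. The single C2 probe (chromosome 17, from 34999575 to 34999634, reverse strand) had a signal of 107 ± 11.3 in young and 44.5 ± 5.84 in aged cells. Its log2 difference of -0.89 ± 0.24 lay between those of the C1q genes and those of the other members. It was past 2-fold with the spike-in controls (-1.15) and shrank to -0.26 with the normexp correction.

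For C4b, the brighter probe, which the files match to C4b alone (chromosome 17, from 34865367 to 34865426), had a signal of 501 ± 50.2 in young and 361 ± 36.3 in aged cells, a difference of -0.10 ± 0.20. The other C4b probe, shown above and matched to C4a as well, had 87.9 ± 9.47 and 57.0 ± 6.70, a difference of -0.25 ± 0.23. C4a itself, a near-identical copy of C4b, was measured in young cells alone and gives no fold. The sign of the C4b difference changed between scalings, from -0.36 to 0.08, and no direction can be given.

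C3, the protein on which all pathways converge, was the one member to pass 2-fold upward. Its brighter probe (chromosome 17, from 57343416 to 57343475, reverse strand) had a signal of 651 ± 65.2 in young and 1719 ± 172 in aged cells. The level was 1.35 against 3.12, a difference of 1.77 ± 0.20, and lay between 1.51 and 1.95 over the scalings. The second C3 probe, shown above (from 57343678 to 57343737), had 503 ± 50.4 and 918 ± 91.9, a difference of 1.24 ± 0.20, or 2.36-fold. Both probes were thus past 2-fold, with sizes 0.53 apart. Of the 18745 genes measured on both arrays, 72, C3 included, had a difference as high or higher than that of its brighter probe. C3 lay 2.997 above the median of the C1q genes on the log2 scale, the widest gap over the scalings, and 2.72 above it with normexp, the narrowest. Scalings that shift a whole array by a constant cannot change this gap, so only quantile normalization, loess and normexp could move it.

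**Figure D3:**
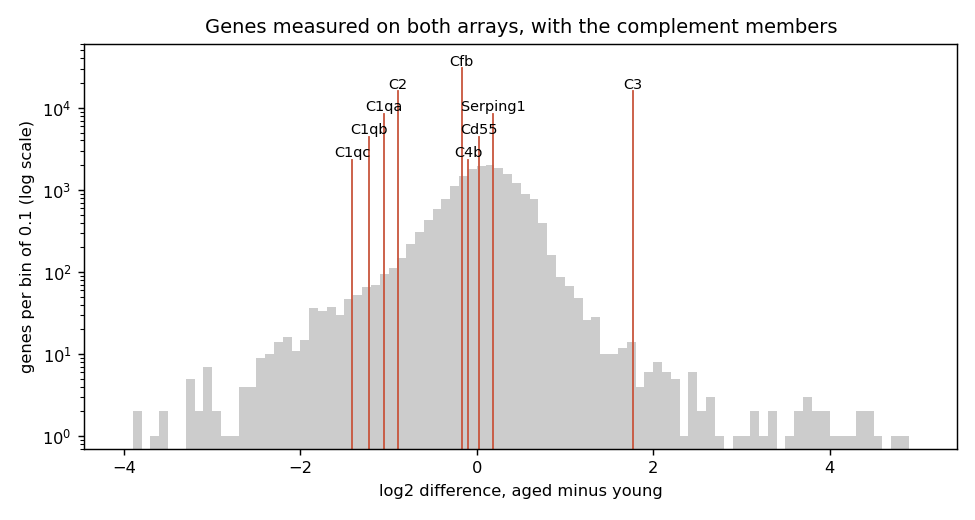
Number of genes per bin of 0.1 in log2 difference, aged minus young (grey bars, log scale on the vertical axis), for the 18745 genes measured on both arrays, with the difference of each complement gene as a red line. C3 lies in the upper tail at 1.77, C1qa, C1qb and C1qc lie in the lower tail from -1.41 to -1.06, and C4b, Cfb, Serping1 and Cd55 lie in the centre.

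Other cell types known to make C3 were read through their markers. Neither array measured the liver genes Alb and Apoa1, and Apoa2 differed by 0.01 and Serpina1a by -0.37. Fgb, measured in young cells alone, was lower by at least 5.12-fold, and its difference lay between -2.74 and -0.78 over the scalings. Ttr, which liver also expresses, differed by 4.33 in the other direction, and by 2.36 to 4.51 over the scalings. Its signal was 17.9 in young cells, near the lowest that counts as well above background, and 278 in aged cells. A second Ttr probe was measured by neither array. Of the fibroblast markers, Col1a1, Col1a2 and Col3a1 differed by -1.81, -1.44 and -1.73 and Dcn by -0.98, and Pi16, the 1 fibroblast marker past 2-fold upward, by 1.02. The adipocyte genes Adipoq, Plin1 and Cidec were measured by neither array, whereas Fabp4 and Lep were measured by both and differed by 0.26 and -0.05. Of the neutrophil markers, S100a8 and S100a9, measured in aged cells alone, were higher by at least 3.98-fold and 14.04-fold, whereas Ly6g differed by -0.18, Csf3r by -0.21 and Mmp8 was measured by neither array. The part of any of these cells in the C3 result was not tested.

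Cfb encodes factor B, the protease of the alternative pathway that joins C3b. Its measured probe, the first Cfb sequence shown above, spans an exon junction, since the files give it 357 bases of chromosome 17, from 34993502 to 34993858. The signal was 68.3 ± 7.51 in young and 46.8 ± 5.64 in aged cells, a difference of -0.17 ± 0.24. Over the scalings, it lay between -0.43 and 0.00. The second Cfb probe, with signals of 12.8 in young and 14.8 in aged cells, was measured by neither array. Of C3 and Cfb, whose products act in one enzyme, C3 alone passed 2-fold.

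Of the regulators, Serping1 was read by 1 probe (chromosome 2, from 84605663 to 84605722), with a signal of 152 ± 15.4 in young and 133 ± 13.6 in aged cells. Serping1 encodes the C1 inhibitor, which blocks C1r and C1s. Relative to the 75th percentile, this is a difference of 0.19 ± 0.21, and -0.07 to 0.36 over the scalings. Cd55, whose product speeds the decay of the enzymes that cut C3 on the surface of cells, was read by 4 probes on chromosome 1, of which 3 were measured on both arrays. The brightest, which spans an exon junction over 7987 bases from 132336925 to 132344911, had 62.0 ± 7.22 in young and 48.7 ± 6.12 in aged cells, a difference of 0.03 ± 0.25. The others differed by 0.12 ± 0.27 and 0.50 ± 0.28. No Cd55 probe reached 2-fold, and the sign of the brightest changed between scalings.

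**Figure D4:**
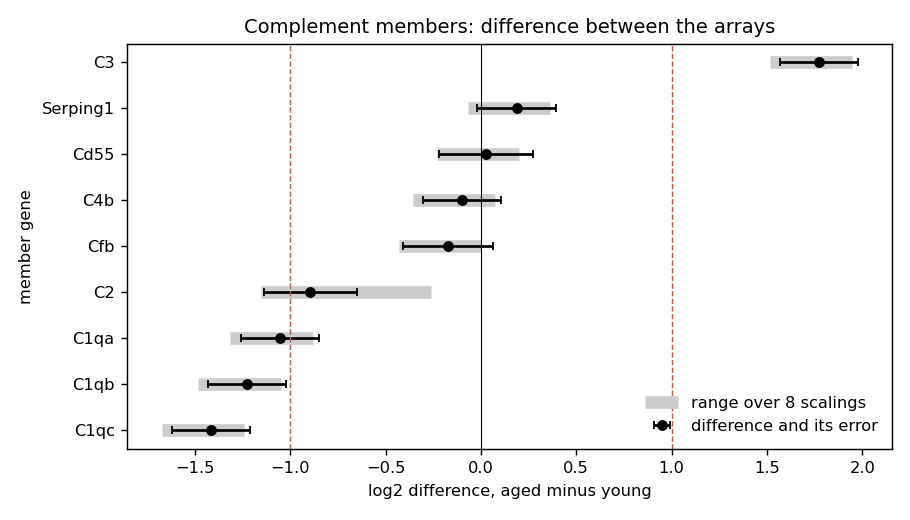
Log2 difference, aged minus young (horizontal axis), of the brightest probe of each complement gene (vertical axis). Black points with bars give the difference and its error from the error model of the 2 spots, grey bars give the range over 8 scalings of the arrays, and dashed lines mark 2-fold. C3 lies above 2-fold throughout, C1qb and C1qc lie below throughout, and the grey bars of Cfb, C4b, Cd55 and Serping1 reach or cross 0.

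C2, Cfb and C4b lie in one stretch of chromosome 17, the class III region of the major histocompatibility complex, and 10 other genes of that stretch were read. The 9 of these measured on both arrays differed by -0.14 to 0.68, with a median of 0.30, and 0 were past 2-fold. Nelfe, beside Cfb, differed by 0.30, Zbtb12, beside C2, by -0.14, Tnxb by 0.43 and Atf6b by 0.68. C2, at -0.89, lay below all of these, and Cfb, at -0.17, lay just below the lowest.

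A list of 52 complement genes, the 9 members included, was read in full, and 33 of them were kept. Of these, 1 passed 2-fold upward and 9 downward, beside 2.53% and 5.14% of all kept genes. Without the members, 24 genes were kept, with 0 higher and 6 lower, and the 19 measured on both arrays had a median of 0.06.

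The other genes that start the classical pathway differed little. C1ra, which encodes the protease C1r, had a signal of 88.2 in young and 82.2 in aged cells, a difference of 0.27. C1s1 and C1s2, which encode forms of C1s, differed by 0.41 and 0.22, and their near-identical sequences may share signal. None of these proteases followed the C1q genes past 2-fold, and C1rb was measured by neither array. Of the 8 genes of the lectin pathway, which starts from sugars in place of antibody, 2 were kept, both measured in young cells alone. The ficolin gene Fcna was lower by at least 2.37-fold, but its difference lay between -3.18 and -0.40 over the scalings, under 2-fold at the weak end. For Fcnb the limit was 1.27-fold lower, but its difference turned sign over the scalings, from -0.60 to 0.14, and no direction can be given. Neither array measured Masp1, Masp2, Mbl1, Mbl2, Colec10 or Colec11.

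Beside C3 and Cfb, the alternative pathway list held Cfp and Cfd. Cfp encodes properdin, which stabilises the enzyme that cuts C3 and is known as a product of myeloid cells. Its signal was 1556 in young and 259 in aged cells, a difference of -2.21, the lowest among the genes of the list that both arrays measured, and its second probe differed by -2.34. Cfd, which encodes factor D, was measured in young cells alone and lower by at least 1.84-fold. Its difference lay between -2.18 and -0.25 over the scalings. Of the terminal components, C7 differed by 0.99, just under the threshold and past it with centring on the median (1.16), and C8g by -0.05. Neither array measured Hc (C5), C6, C8a, C8b or C9.

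Among the soluble regulators, Clu, the clusterin gene, differed by 0.16, and C4bp, Cfi, Vtn and Cpn2 were measured by neither array. Cpn1, measured in young cells alone with a signal of 21.6, was lower by at least 1.17-fold. Its difference lay between -2.26 and -0.001 over the scalings. Of the 7 membrane regulators, 5 were kept and 0 were past 2-fold. Cr1l, which encodes the rodent regulator Crry, had a signal of 2868 in young and 2413 in aged cells, and its 3 measured probes differed by 0.12 to 0.21. Cd59a differed by 0.37, Cd55b by 0.45 and Cr2 by -0.02, and neither array measured Cd46 or Cd59b.

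Several receptors for complement fragments were lower in aged cells. Of 8 kept, 4 passed 2-fold downward, namely Itgax (CD11c) by -1.64, C3ar1, the receptor for C3a, by -1.57, Itgb2 (CD18) by -1.30, and C5ar1, the receptor for C5a, by -1.12. C3ar1 and C5ar1 were dim, with signals of 64.7 each in young and of 16.9 and 23.0 in aged cells, and came to -0.39 and -0.19 with the normexp correction. Itgb2 came to -0.81 with it, so that Itgax alone of the 4 stayed past 2-fold. Cd93 differed by -0.68, under the threshold, and by -0.94 to -0.51 over the scalings. Itgam (CD11b) differed by -0.05, C5ar2 by 0.06 and C1qbp by 0.44, and neither array measured Vsig4. The Itgam value rests on a very bright probe, with signals of 13247 in young and 9870 in aged cells, beside 200 and 62.8 for Itgb2. The other Itgam probe was measured in young cells alone, and what the bright probe reads was not tested. A second Itgax probe differed by 0.42, against the direction of the brighter one. The 4 receptors past 2-fold are known from myeloid cells, and they stood beside macrophage markers with a median of -1.25, whose part in these values was not tested.

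**Figure D5:**
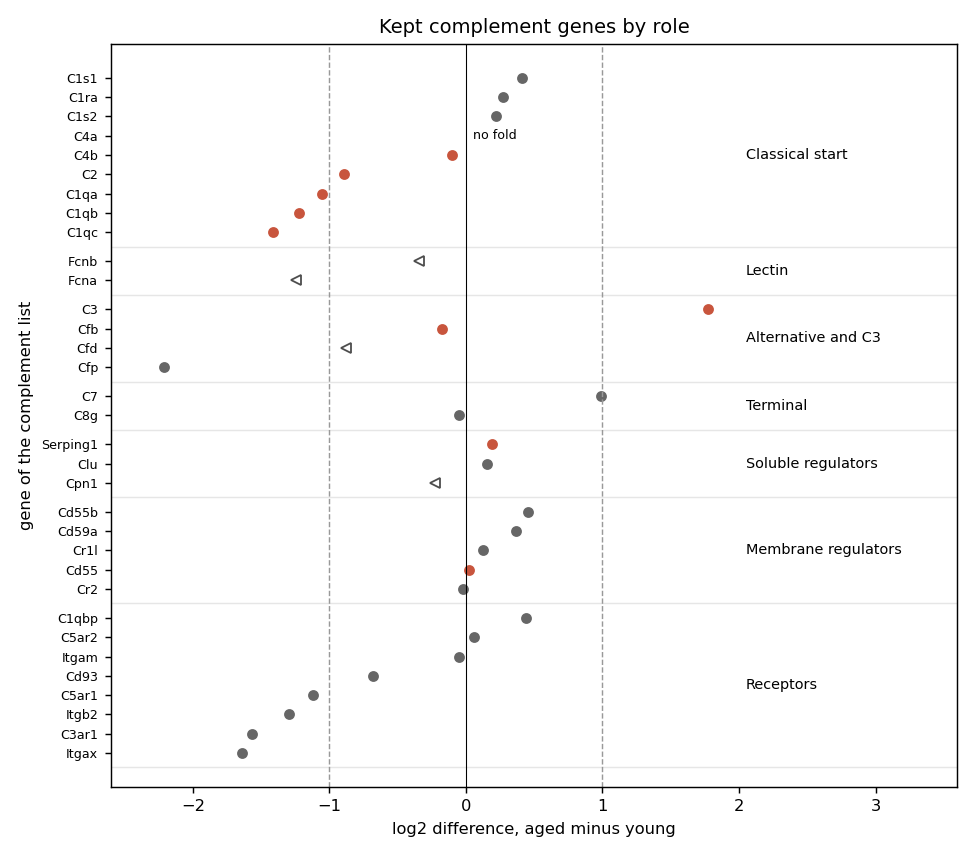
Log2 difference, aged minus young (horizontal axis), of the 33 kept genes of the complement list, grouped by role (vertical axis), with the 9 members in red and the other genes in grey. Open triangles are limits of genes measured in young cells alone, and dashed lines mark 2-fold. C3 alone lies above 2-fold, and the 9 genes past 2-fold downward are the C1q genes, Fcna, Cfp and 4 receptors.

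For 4 of the 9 members, C1qb, C1qc, C3 and Cd55, a RefSeq promoter window (250 bases before to 50 after the start, GRCm38.p6) was at hand, and 4 short words were searched on both strands. The word for PU.1, a factor of myeloid cells, GAGGAAGT, was in the C1qc window only, 195 bases before the start, and in 3.20% of all 32851 windows. The stretch around it is shown since it was the only match among the members, with the word in capitals as its reverse complement.
C1qc chr4:136893062-136893149, reverse strand: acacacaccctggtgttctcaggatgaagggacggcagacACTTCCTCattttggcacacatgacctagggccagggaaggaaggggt
The words for NF-kB, for the interferon response (GAAA repeated after a gap) and for STAT factors (TTCNNNGAA) were in none of the 4 windows and in 0.411%, 3.44% and 8.30% of all windows. A match describes the letters of a window and is no evidence of binding.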

How the data were processed

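Gene expression was measured on 1 array per age. The deposited scanner files, made by the authors' service with Agilent Feature Extraction 12.0.3.1, give the intensity of each spot after background and trend correction, its error and marks (other values, 0 or 1) for outliers and well above background, and the raw intensity. The deposited value table holds the same signal divided by 1 constant per array, 229 for young and 176 for aged. The methods name the 75th percentile per array, the exclusion of dim probes and a 2-fold threshold.

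Here, log2 of the processed intensity minus the log2 75th percentile was used. Outlier spots on either array (90 and 93) were left out, and no spot was saturated. Limits set the brighter value against the dim array's own signal or its lowest one well above background (14.1 young, 14.3 aged), whichever was greater. No probe of the 9 genes was an outlier. The error of a difference combines the relative errors of both spots. In 271 probes with about 10 spots each, the difference had a median SD of 0.033 over the spots. The number of arrays limits the precision. Gene names came from RefSeq accessions (33767 of 56605 probes matched, GRCm38.p6, used for names and promoters only). Coordinates are those of the files (NCBI37).

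The members, the lists of complement and marker genes, the rule for named genes (all members, list genes past 2-fold or in small roles, and markers) and the 14 alternatives were chosen with earlier results of these data known. A further gene of the complement list, not among the 52, is not reported here. The 8 scalings are the 75th percentile over probe spots, over all spots or over probes measured on both arrays, the median, quantile normalization, loess (span 0.7), the spike-in controls and normexp (offset 50). Python 3.11.15 and limma 3.58.1 in R 4.3.3 were used, and the steps were tested on simulated data.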

Additional observations from a re-analysis of the deposited data

How the results depend on the processing

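Under the 14 alternatives, 1 member (C3) passed 2-fold upward in each, and the members past it downward numbered 2 to 4. They were 2 with centring on the median and with normexp, where C1qa fell short, and 4 with the spike-in controls and with the 75th percentile over probes measured on both arrays, where C2 passed. In the list of 52 genes, the number at least 2-fold higher was 2 with centring on the median and without a filter on dim probes. The number at least 2-fold lower ran from 4 with normexp to 13 without that filter, and was 11 with the spike-in controls. The median of the C1q genes was -1.48 and that of the other members -0.29 after levelling on the spike-in controls. The latter median had no stable sign, since it was 0.14 with centring on the median. No member past 2-fold changed sign. Over all genes, 182 were higher and 297 lower with normexp, 1685 and 2416 without a filter, and 650 and 1691 with dim values taken as they stand. Cfb, Cd55, C2 and C3ar1 were dim on both arrays, and signal over background limits what can be said of them. No paired analysis was possible because each age has 1 array.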

Other observations

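Genes known to rise with C3 in the acute phase were read from a list of 10, of which 5 were kept, 1 past 2-fold upward and 0 downward. Lcn2, the lipocalin that binds bacterial siderophores, differed by 1.65, with signals of 131 in young and 319 in aged cells. The haptoglobin gene Hp differed by 0.91, with 2425 and 3526. Saa1 differed by 0.34, the ceruloplasmin gene Cp by 0.13 and Lbp by -0.01. The probes of Cp disagreed, since a dimmer one that both arrays measured differed by 1.04. Neither array measured Saa2, Saa3, Hpx, Orm1 or Orm2. Of 5 cytokines known to induce these genes, the 3 measured on both arrays had negative differences. Cytokines made outside the sorted cells were not read, and the part of cytokines in these values was not tested. Tnf differed by -1.42 (-0.42 with its second probe), Il1b by -1.13 and Il6 by -0.23, Il1a was measured in young cells alone and gives no fold, and Ifng was measured by neither array.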
